A study of Homo sapiens with 12 samples.

Results

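Small nucleolar RNAs and small Cajal body RNAs were followed through a map of the RNA contacts of QKI (Quaking), an RNA-binding protein of the KH-domain family that regulates splicing. Members were the clusters of the endogenous-QKI libraries that carried any gene name starting with SNORD (box C/D), SNORA (box H/ACA) or SCARNA (Cajal body). This rule took 355 of 384347 clusters in endogenous library 1 and 237 of 231844 in endogenous library 2. Merging clusters of both libraries on one strand, wherever they overlapped by 1 base or more, gave 282 member regions of 493706 regions in all, of which 125 were box C/D, 119 box H/ACA and 38 Cajal body. The regions carried 201 gene names, 103 box C/D, 77 box H/ACA and 21 Cajal body, and 170 names were found in both endogenous libraries.

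The assay was eCLIP (enhanced crosslinking and immunoprecipitation): RNA crosslinked to a protein is recovered with an antibody and read out by sequencing, with a size-matched input for each library. The labels name the cells HEK293xT or HEK293T, a human embryonic kidney line, whereas the series' design note speaks of differentiating human embryonic stem cells, and the labels were followed. Of 3 groups with 2 immunoprecipitation libraries each, the wild type group was cells transfected with 10 µg of plasmid for myc-tagged QKI-5 and pulled down with anti-MYC after 72 hours. The mutant group was the same with QKI-5 carrying K120A and R124A (numbered by residue), and the endogenous group was unmodified cells pulled down with anti-QKI. All were crosslinked at 254 nm with 400 mJ/cm2. The tagged protein was expressed from a plasmid in cells not said to lack their own QKI, and the endogenous group differs from both tagged groups in antibody as well as in transfection. No label tells separate cultures from repeat libraries of 1 culture, so a p-value here covers no more than library-to-library spread, possibly technical.

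Box C/D RNAs guide methylation of the ribose of ribosomal and spliceosomal RNA and sit in a particle with fibrillarin, NOP56, NOP58 and the protein encoded by SNU13 (NHP2L1). Box H/ACA RNAs guide the conversion of uridine to pseudouridine and sit in a particle with dyskerin, NHP2, NOP10 and GAR1. Cajal body RNAs use the same boxes but act on spliceosomal RNAs in Cajal bodies, and most human members of all classes are cut out of introns of host genes, many of them genes for ribosomal proteins.

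Each cluster carried the authors' log2 fold of immunoprecipitation over input, which is negative where the RNA was scarcer in the immunoprecipitate than in input, and a −log10 p. Endogenous files keep clusters on both sides of 0, whereas the tagged files list only clusters above 0. A tagged region without a cluster is therefore either below input or has no cluster, and is called not listed. Read depth is unknown, and clusters per library numbered between 226962 and 384347. The median log2 fold over all clusters was 0.26 in endogenous library 1 and 1.15 in library 2. Of the marker genes of this line, 4 had clusters in endogenous library 1 and 2 in library 2 (NEFM and PAX2 in both). Among blood markers PTPRC alone had clusters, and no liver marker had one.

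In the endogenous libraries most members of all 3 classes lay far below input. In library 1, 343 of the 355 member clusters (96.6%) had a negative log2 fold, against 40.4% of all clusters, and in library 2, 228 of 237 (96.2%) did, against 14.4%. Their median log2 fold was −3.46 in library 1 and −3.65 in library 2. The other clusters annotated in noncoding exons had medians of 0.26 and 1.15, the same as all clusters, though somewhat more of them were below input (46.7% and 20.4%). No member cluster was enriched, meaning a log2 fold and a −log10 p of at least 3, in either library, where 4.22% and 5.39% of all clusters were.

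For the test, 1 cluster stood for each library in a region, the one with the highest −log10 p, and 185 of the 282 member regions had a cluster in both endogenous libraries. Their median log2 fold was −3.42 in library 1 and −3.63 in library 2 (mean −3.53 ± 0.15, SD, n = 2 libraries), 11.5-fold below input, while the same value over all 104130 regions with both was 1.50. limma with Benjamini-Hochberg adjustment over those 104130 regions called 174 member regions lower than input and 4 higher, and 7 were not called. Of all regions, 2.93% were called lower and 61.2% higher. After each library was centred on its own median, 178 members were lower and 1 higher, with 8.51% and 11.7% of all regions. The libraries agreed closely for members, with a median absolute difference of 0.41 between them over the 185 regions against 0.72 over all regions.

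Box H/ACA RNAs were the lowest class. Of 69 H/ACA regions in both libraries, limma called 66 lower and 2 higher, with a median of −4.26 ± 0.14 (SD of the 2 library medians), 19.1-fold below input. Of 94 box C/D regions, 91 were lower and 1 higher, with a median of −3.25 ± 0.10, 9.52-fold below. Of 22 Cajal body regions, 17 were lower and 1 higher, with a median of −3.05 ± 0.04, 8.26-fold below. The difference of about 1 log2 unit between H/ACA and C/D was larger than the SD between library medians, and no test was made of it because the regions of a class are not replicates. Counted by gene, all tested regions were lower for 158 of 167 genes, namely 86 of 89 C/D, 57 of 59 H/ACA and 15 of 19 Cajal body genes.

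**Figure D1:**
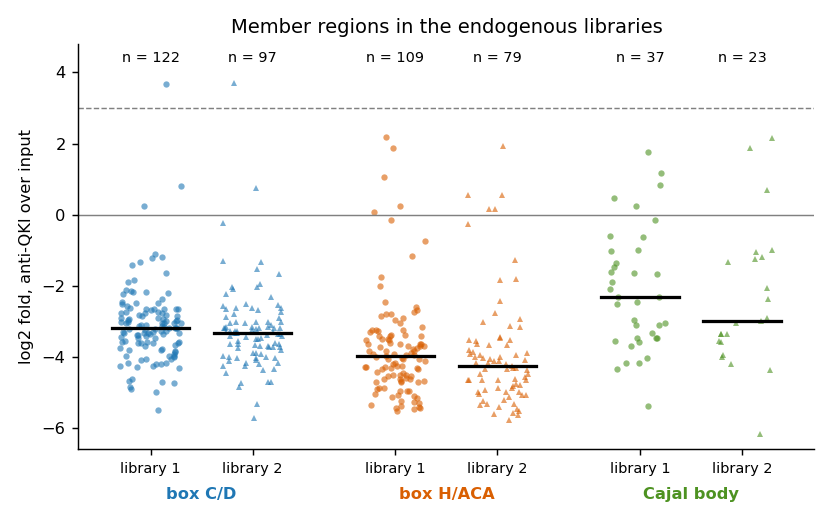
Log2 fold of anti-QKI immunoprecipitate over input (vertical axis) for every member region with a cluster in endogenous library 1 (circles) or library 2 (triangles), by class; black bars are medians, the solid line is input level and the dashed line a log2 fold of 3. Medians ran from −2.33 for Cajal body regions in library 1 to −4.24 for H/ACA regions in library 2, and 1 C/D region lay above the dashed line in both libraries.

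The lowest Cajal body RNA was SCARNA11, in an intron of CHD4 (hg19 chr12:6690634-6690758, minus strand), at −5.38 in library 1 and −6.17 in library 2 (limma difference from input −5.78, SE 0.55, adjusted p = 2.4e-23). SCARNA1 in PPP1R8 was at −4.18 and −4.36, SCARNA8 in HAUS6 at −4.03 and −4.21, and SCARNA14 in TIPIN at −3.70 and −3.96. None of these was near input in either library. Among H/ACA RNAs the lowest was SNORA65, in the gene for ribosomal protein RPL12 (chr9:130210779-130210910, minus strand), at −5.26 and −5.78 (limma difference −5.52, SE 0.55, adjusted p = 2.1e-21). SNORA70 in RPL10 followed at −5.47 and −5.56, then SNORA19 in the translation factor gene EIF3A at −5.44 and −5.36 and SNORA27 in RPL21 at −5.25 and −5.48. The lowest box C/D RNA was SNORD6 in TAF1D (chr11:93464675-93464722, minus strand), at −4.72 and −5.72 (limma difference −5.22, SE 0.55, adjusted p = 3.0e-19). SNORD38A followed at −4.69 and −5.32, and SNORD38B at −4.98 and −4.73. The SE is the same for these because limma estimated 1 common spread for the endogenous fit. The difference between a region's own 2 libraries therefore did not enter its SE or its p-value. All these members were annotated as noncoding exons, and those given with a host lay within its introns or the intronic flanks of its splice sites.

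Of the 282 regions, 60 lay in a ribosomal protein gene, 171 in another gene and 51 had no host in the annotation. H/ACA regions within ribosomal protein genes had a median of −5.02 and ranged from −5.52 to −4.04, with 14 of 14 tested called lower. H/ACA regions in other hosts had a median of −4.15, with 43 of 46 lower. For C/D regions the medians were −3.46 in ribosomal protein genes and −3.16 in other hosts, and −3.54 where no host was annotated. RefSeq lengths, found for 101 of 103 C/D, 71 of 77 H/ACA and 21 of 21 Cajal body genes, had medians of 82, 135 and 144 bases.

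RNAs known for ribosomal RNA processing were depleted like the rest. Of 15 such genes listed, 7 had a member region under their own name. Of these regions 7 were in both libraries and limma called 7 of 7 lower, with a median of −3.22. SNORD3A, the U3 RNA of the early ribosomal precursor cuts (chr17:19091336-19091516, plus strand), was at −3.36 in library 1 and −3.41 in library 2. SNORD14A and SNORD14B, copies of U14 in RPS13, were at −3.33 and −3.01 and at −2.82 and −3.63. SNORA73B (U17b, in RCC1) was lower, with 2 regions at −4.70 and −4.07 and at −4.88 and −4.30. SNORD78, the 1 GAS5-hosted RNA of 10 listed that had a cluster under its own name, was at −3.24 and −3.32. Clusters named for a host gene such as GAS5 were not assigned to the snoRNAs inside it, so these counts cover named clusters only. No cluster was named for the imprinted families SNORD113, SNORD114, SNORD115 or SNORD116.

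RNAs that guide methylation of U6, the catalytic small nuclear RNA, were all present. These 6 genes (SNORD7, SNORD8, SNORD9, SNORD10, SNORD67 and SNORD94) had 6 regions in both libraries, of which limma called 5 lower. SNORD67 was at −3.41 and −3.71, SNORD10 at −2.64 and −3.18, and SNORD8 at −1.84 and −1.94. Clusters named for U6 and its copies stood above input as a set, with median log2 folds of 2.10 and 2.83, and 36 of 110 and 32 of 74 were enriched. U6 genes were not separated from the copies here. Clusters of the other spliceosomal RNAs had medians of −3.37 and −4.38, and tRNA clusters −3.03 and −3.02, close to those of the members. Clusters named only as copies of U3, U8 or sno, which the prefix rule leaves out, had medians of 0.72 (n = 11) and 1.15 (n = 6).

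The host sequence around a member was nearer to input than the member. In library 1, 119 member regions had a non-member cluster on the same strand within 500 bases; the member's median was −3.48, the nearest neighbour's −1.16, and the neighbour was higher in 107 of 119. In library 2 the medians were −3.71 and −0.61 over 77 regions, and the neighbour was higher in 74 of 77. The neighbour was enriched for 4 of 119 regions in library 1 and 2 of 77 in library 2, not above the 4.22% and 5.39% of all clusters. In library 1, 1 CHD8 cluster was the neighbour of 2 SNORD9 regions. Beside SNORD36C (−2.23 and −2.63), clusters in RPL7A reached 3.19 and 3.13. A cluster in EIF5 reached 3.31 in library 1, 75 bases from a SNORA28 region at −3.96. Clusters in CHD8 near SNORD9 reached 3.53 and 4.77.

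**Figure D2:**
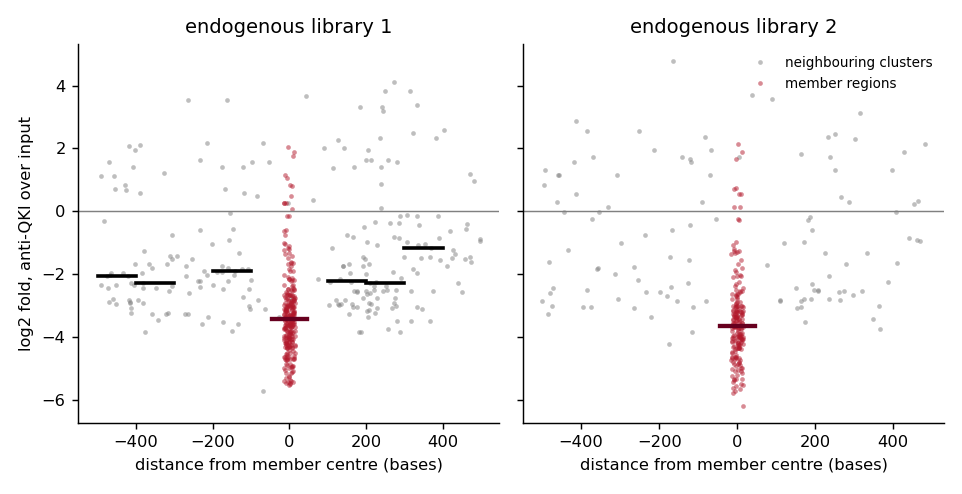
Log2 fold in each endogenous library (vertical axis) against distance in bases from the centre of the member, oriented 5′ to 3′, for clusters named for the members (red, drawn at 0) and neighbouring clusters of other names (grey). Black bars are neighbour medians in bins of 100 bases holding at least 20 clusters and the red bar is the member median; the members form a trough with neighbours scattered on both sides of 0.

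A boundary seen in both libraries lay in SNORD58C and the RPL17 intron that holds it (chr18:47015522-47015679, minus strand). This was the 1 member region enriched in both endogenous libraries, at 3.68 and 3.69, where 1.62% of all regions were, and the 1 member region overlapping any of the authors' 12409 reproducible endogenous peaks. The enriched cluster did not carry the snoRNA's name. In library 1, the cluster at 47015532 to 47015583 was annotated in the proximal intron of RPL17. A further intronic cluster, at 47015597 to 47015610, was at 0.26, and the clusters named SNORD58C, at 47015611 to 47015679, had log2 folds from −3.73 to −3.38. In library 2 the intronic cluster spanned 47015522 to 47015605 and the SNORD58C cluster, which began at the next base, was at −2.52. With named clusters alone standing for a region, no member was enriched in both libraries. No cluster named for a member overlapped a reproducible peak of any group.

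The other 3 regions that limma called higher lost that call when each library was centred on its median, and their folds were near the median of 1.50 over all regions. SNORA72 on chromosome 1 (an H/ACA name that also marks the RPL30 intron copy) had 2 adjacent regions in an intron of NUCKS1. The first was at 1.88 and 0.56 (adjusted p = 0.043) and the second at 2.19 and 1.94 (adjusted p = 0.00054). In the second, the named clusters were at 2.04 and 1.65, and on average 23.3% of their bases lay in the noncoding exon. The SNORA72 region in RPL30 was at −4.87 and −5.64, so the same name stood above input at one locus and far below at another. SCARNA15 had a region at 1.77 and 2.15 (adjusted p = 0.0010), but clusters carrying that name spanned 1862 bases where RefSeq gives the RNA 127 bases. Of the SCARNA15 regions found in 1 endogenous library only, that at chr15:83424764-83424778 was at −2.33 and the rest ranged from 0.26 to 1.89. Among regions not called, SNORA67 in an intron of MAP4K3 was at 0.26 and 0.56 and a second SCARNA15 region at 0.84 and 0.70. Clusters with under 50% of their bases in the noncoding exon were few, 8 in library 1 and 4 in library 2, and 3 in each were above input. Wholly exonic clusters above input were 9 of 260 in library 1 and 4 of 167 in library 2.

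SNORD9, in CHD8 (chr14:21860346-21860500, minus strand), was the 1 region of a U6 guide not below input in both libraries. On average 43.5% of the bases of its named clusters lay in the noncoding exon and the rest in the CHD8 intron; clusters named SNORD9 spanned 201 bases where RefSeq gives 103. A second SNORD9 region, 80.4% exonic, was at −1.18 in endogenous library 1. The first region stood at 0.81 and 0.75 in the endogenous libraries (adjusted p = 0.20), at 3.22 and 3.61 in wild type and at 1.14 and 1.36 in the mutant. The wild type libraries were thus higher than all others, with no overlap. Support was weak: the −log10 p was 2.15 and 2.83 in wild type and 2.34 and 2.30 in the mutant, under 3 in every tagged library. limma gave a wild type minus mutant difference of 2.17 (SE 0.46), which did not pass after adjustment over 2741 regions (adjusted p = 0.065). The enriched CHD8 clusters lay 27 and 34 bases away in endogenous libraries 1 and 2. Whether the 2 signals are 1 contact was not tested.

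In the tagged libraries, box C/D RNAs were listed above input mostly with the mutant. In mutant libraries 1 and 2, 58 and 59 of 125 C/D regions (46.4% and 47.2%) had a listed cluster, against 13 and 4 (10.4% and 3.20%) in wild type. All regions went the other way, with 9.43% and 11.0% listed in the mutant libraries and 18.2% and 19.2% in wild type. The C/D group means were 46.8 ± 0.57% and 6.80 ± 5.09% (SD, n = 2 libraries each), a difference of 40.0 percentage points. A tagged cluster that overlapped several adjacent regions was counted for each, as for adjacent SNORD90 regions, both at 2.45 in mutant library 1. The 2 mutant libraries listed largely different C/D regions despite their similar counts: 87 of 125 were listed in at least 1 and 30 in both. In wild type, 16 were listed in at least 1 library and 1 in both. By gene, 27 of 103 C/D genes were listed in both mutant libraries and 1 in both wild type libraries.

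H/ACA RNAs did not share this. Of 119 H/ACA regions, 2 and 7 (1.68% and 5.88%) were listed in the mutant libraries and 5 and 4 (4.20% and 3.36%) in wild type, with the same group mean of 3.78%. Cajal body regions were listed in 12 and 13 of 38 in the mutant (31.6% and 34.2%) and in 10 and 10 (26.3% and 26.3%) in wild type, with overlapping exact binomial intervals at 95%, which cover counting error only. Over all members, the mutant libraries listed 72 and 79 regions and the wild type libraries 28 and 18, a difference in means of 52.5 regions (exact two-sided permutation p = 0.333, n = 2 against 2). This is the smallest p that this test can give with 2 libraries against 2. Among other small RNAs, tRNA regions were listed at 36.2% and 32.8% in wild type and 48.3% and 36.2% in the mutant, and spliceosomal RNAs other than U6 at 6.90% and 10.3% and at 13.8% and 20.7%. U6 genes and copies went the other way, with 40.2% and 33.0% in wild type and 25.8% and 28.9% in the mutant. So did the 13 regions named as copies of U3, U8 or sno, with 38.5% and 46.2% in wild type and 7.69% and 23.1% in the mutant.

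**Figure D3:**
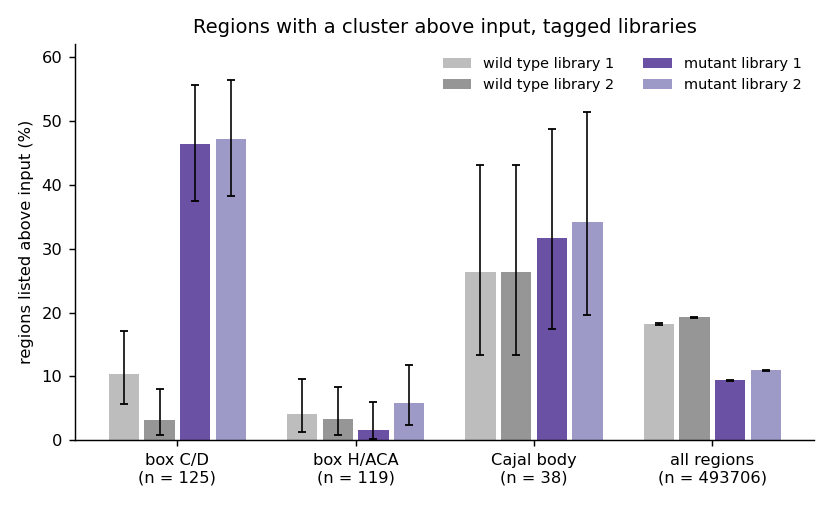
Percentage of regions with a cluster above input (vertical axis) in each tagged library, for the 3 member classes and all 493706 regions; bars start at 0 and error bars are exact 95% binomial intervals. The box C/D bars reach 46.4% and 47.2% in the mutant libraries and stay at or under 10.4% in wild type.

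Of the 125 C/D regions, 72 were listed in at least 1 mutant library and in no wild type library, where 10.6% of all regions were. The reverse held for 1 C/D region, against 21.1% of all regions. The 17 C/D regions listed in both mutant libraries and neither wild type library compare with 1.57% of all regions. Support by −log10 p had the same split: 28 and 25 C/D regions reached 3 in the mutant libraries and 1 and 0 in wild type, where 0.0950%, 0.521%, 1.37% and 1.57% of all regions did. The regions so supported were not all the same in the 2 mutant libraries. SNORD85 had a −log10 p of 16.4 and 21.7. SNORD24 had 21.5 in mutant library 1 and was not listed in library 2. A SNORD17 region had 34.3 in mutant library 2 and was not listed in library 1. Members made up 0.057% of all regions but 36 of the 469 regions with that support in mutant library 1 (7.68%) and 32 of 2574 in mutant library 2 (1.24%). In wild type they were 4 of 6751 and 1 of 7728. Over all regions the mutant libraries held fewer with that support, so shares within a library are compared here and not levels.

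The listed folds were small in both groups. Listed members had median log2 folds of 0.55 and 0.65 in wild type and 0.71 and 0.57 in the mutant, and the group means of 0.60 ± 0.07 and 0.64 ± 0.10 differed by −0.04 (exact two-sided permutation p = 0.667, n = 2 against 2). No member region was enriched in any tagged library, where 0.885%, 0.928%, 0.00972% and 0.0488% of all regions were (wild type 1 and 2, mutant 1 and 2). No member overlapped the authors' 3671 reproducible wild type or 55 mutant peaks. SNORD3A shows how a small fold can be well supported: it was listed in mutant library 2 alone, at 0.71 with the −log10 p at its cap of 400.

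Among single members, SNORD90, in RC3H2 (chr9:125642509-125642587, minus strand), was highest with the mutant, at 2.45 and 1.64. It was at 0.83 in wild type library 1, not listed in library 2, and at −1.89 and −1.66 with endogenous QKI. SNORD85 was at 1.84 and 2.20 in the mutant, 0.65 and not listed in wild type, and −1.33 and −1.34 in the endogenous libraries. SNORD99 was at 1.67 and 1.69 in the mutant, 0.46 and not listed in wild type, and −2.76 and −3.30 in the endogenous libraries. In each case both mutant values lay above the wild type and endogenous values.

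SNORD35B was at 1.24 and 1.49 in the mutant against 0.06 and not listed in wild type. SNORD91A and SNORD91B, both in TSR1, were listed in the mutant alone, at 1.33 and 0.87 and at 0.79 and 0.46. SNORD36C in RPL7A was likewise listed in the mutant alone, at 1.37 and 0.81. SCARNA2, a guide for the U2 small nuclear RNA, was at 1.16 and 1.53 in the mutant with −log10 p of 43.2 and 69.0, against 0.48 and not listed in wild type. SNORA74A (U19, in MATR3) was the 1 H/ACA region listed in both mutant libraries, at 0.74 and 1.91, against 0.55 and not listed in wild type. By name prefix these 2 are a Cajal body and an H/ACA member, and they had the pattern seen for C/D members. The prefix SCARNA does not tell which boxes an RNA carries, so SCARNA2 is not set apart from C/D RNAs by its box.

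**Figure D4:**
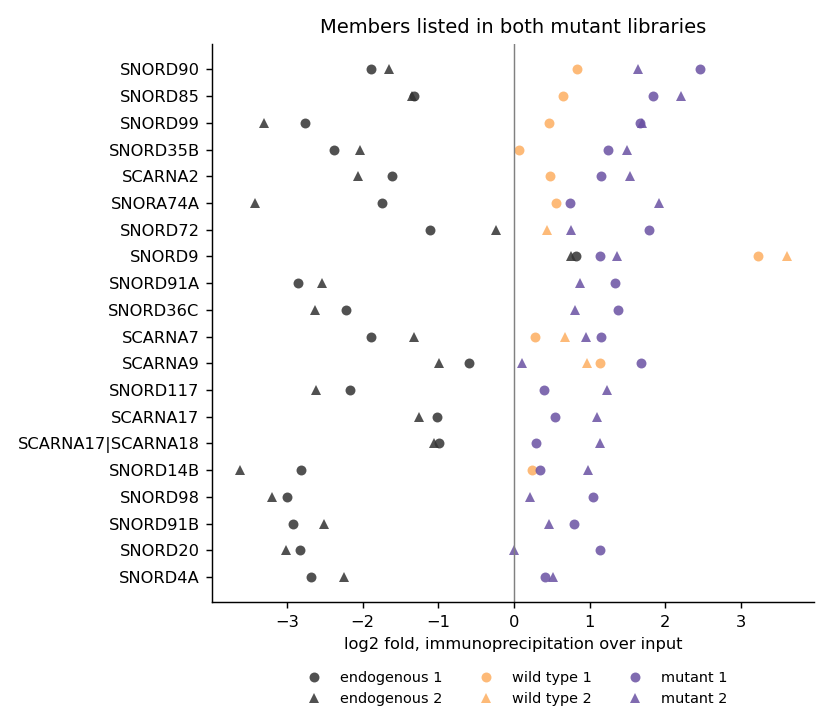
Log2 fold of immunoprecipitation over input (horizontal axis) in all 6 libraries for the 20 members with the highest mean among those listed in both mutant libraries and found in both endogenous libraries, 1 region per name. A missing wild type point means not listed; for all members shown except SNORD9 the endogenous points (black) lie below 0, and SNORD9 is highest in wild type.

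Direct comparison of wild type and mutant was possible for the 5 member regions with a cluster in all 4 tagged libraries (all regions 0.555%), so the members absent from wild type did not enter it. limma called 0 of 5 in either direction, where 2.41% of the 2741 regions were higher and 0 lower. At an unadjusted p under 0.05 it was 1 of 5, SNORD9, and over all regions 272 higher and 145 lower. The 2 SCARNA7 regions, in KPNA4, differed by −0.57 and −0.74, and the 2 SCARNA9 regions by −0.48 and 0.16, with adjusted p from 0.49 to 0.92 by limma. The SCARNA9 region at 0.16 was the 1 member region with a −log10 p of at least 3 in wild type library 2. It was at 1.14 and 0.97 in wild type (−log10 p of 13.5 and 7.98). In the mutant it was at 1.68 and 0.11 (−log10 p of 15.4 and 0.37). With an unlisted tagged cluster set to a log2 fold of 0, 50 member regions could be fitted among 77872, of which limma called 24.6% higher and 1.49% lower in wild type. Among members it called SNORD85 (−1.70, SE 0.35, adjusted p = 0.047), SNORD99 (−1.45, SE 0.27, adjusted p = 0.040) and SNORD35B (−1.33, SE 0.22, adjusted p = 0.034) lower in wild type, and SNORD9 higher. These values rest on 0 standing in for a fold that the files do not give.

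C/D members listed with the mutant were the less depleted ones with endogenous QKI. The median endogenous log2 fold was −2.58 for the 22 C/D regions listed in both mutant libraries, −3.32 for 47 listed in 1 and −3.87 for 25 listed in neither. Cajal body regions had −1.28 for 6 listed in both and −3.30 for 14 listed in neither, with −3.64 for the 2 listed in 1, so that class showed no order. Both are descriptions over regions that share the same libraries.

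Genes for the proteins of these particles had regions on both sides of input. Of 97 regions tested in 17 snoRNP and Cajal body protein genes, limma called 52 higher than input and 13 lower, with a median of 1.23. Of all regions, 61.2% were higher and 2.93% lower, with a median of 1.50. Regions enriched in both endogenous libraries lay in COIL (coilin, 3.61 and 3.81), FBL (fibrillarin, 5.64 and 4.21), SHQ1 (3.23 and 3.27), a dyskerin assembly factor, and ZNHIT6 (3.37 and 3.81), a box C/D assembly factor. The FBL region was at 3.11 and 1.66 in wild type, 2.19 in mutant library 1 and not listed in mutant library 2. The COIL, SHQ1 and ZNHIT6 regions were listed in both wild type libraries, between 2.96 and 4.65, and in neither mutant library. Regions named for GAS5 and the SNHG host genes were lower in 35 of 56 tested and higher in 4, with a median of −1.53. None of their clusters was enriched. Because the regions were taken by name, exons of the spliced host RNA were not told apart from snoRNA sequence in the introns. SNHG3, for example, had regions at −4.25 and −4.37 and at 2.63 and 2.08 in endogenous libraries 1 and 2.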

How the data were processed

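The cluster tables of 6 eCLIP libraries were analysed. Per the submitters' processing notes, UMI-tools, cutadapt, STAR, SAMtools and build hg19 were used; no version or peak caller is named there. The deposited log2 fold of each cluster over input and its deposited −log10 p are the authors' values. In the endogenous files the −log10 p is 0 wherever the fold is not above 0. Input libraries enter only through these folds.

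Regions, enrichment thresholds and the cluster standing for a library are given in the report. Tagged values came from the overlapping same-strand cluster. limma 3.58.1 (lmFit, eBayes, R 4.3.3) tested endogenous means against 0 and wild type minus mutant, adjusted over all regions; overlaps used pandas 2.3.3 and bedtools 2.31.1. Tested on simulated data, the endogenous fit called 40%, 86% and 100% of regions shifted by 2, 3 and 4, and the wild type minus mutant fit 16%, 70% and 88%. In each simulation 50 regions were shifted at each size and the rest had no shift. The endogenous data differed from this, with 61.2% of regions called higher. The adjustment over regions was therefore not alike, and these rates do not give the sensitivity of the endogenous fit reported here. Same-numbered wild type and mutant libraries did not deviate together (r = −0.081 across 2741 regions), so no pairing was used.

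Members and lists were chosen with earlier results of these data known. Named members were to be regions enriched in both libraries, class extremes, the largest wild type minus mutant differences and list members. The extremes were to have a −log10 p of at least 3, which no cluster below input can have, so they were taken by mean fold, after values were seen, as were the mutant-listed and not-called members, the neighbours, host groups and comparison RNAs. The difference in listed regions was also added later. RefSeq (GRCh38.p14) gave lengths only; no member sequence was used here. The hosts of some members are not reported here.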

Additional observations from a re-analysis of the deposited data

Results flagged for a closer look

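The share of member regions listed above input, less the share of all regions listed, was negative in both wild type libraries, by −8.27 percentage points in library 1 and −12.9 in library 2. It was positive in both mutant libraries, by 16.1 points in library 1 and 17.1 in library 2. It drew attention because every library of one group moved one way and every library of the other the opposite way. The difference between the groups in this measure was not tested.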

How the results depend on the processing

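Of 76 alternative values, 56 kept their direction, or their count of 0, and their side of the threshold, and 1 more was exactly 0 (below). The 1 region enriched in both endogenous libraries became 0 with the log2 fold raised to 4, with the −log10 p raised to 5, without merging, and with named clusters alone (an alternative chosen after seeing the data). Leaving out either library gave 1 and 1, but this only loosens the rule to the remaining library, so the count could not fall. Member regions higher than input by limma went from 4 to 1 with each library centred, where 11.7% of all regions were higher. With a −log10 p of at least 3 required they went to 2 of 2, where 17888 of all 17954 regions were higher. Regions lower than input went from 174 to 0 under that −log10 p filter, which removes every cluster below input, and to 20 and 22 without either endogenous library, where 31 members could be fitted with the spread shared with the tagged libraries. The median of member regions moved from −3.53 to −5.02 with centring. For wild type minus mutant, 0 members higher became 1 with centring, where 79 of all 2741 regions were higher. It became 1 with unlisted clusters set to 0 (24.6% of all regions) and 1 with the spread shared (104 of all 1429). With unlisted clusters set to 0, 0 lower became 3, where 1.49% of all regions were lower. The difference in median listed fold, −0.04, was −0.47 over members listed in all 4 tagged libraries, −0.44 with centring and 0 with unlisted clusters set to 0. It turned to 0.013 with at least 50% of the tagged cluster overlapping, and ranged from −0.11 to 0.026 with 1 tagged library left out. The replicate block gave 0 and 0 called members and changed no member call, while over all 2741 regions 52 were higher with it and 66 without it. The block does not enter the median difference of −0.04 or the listing difference of 52.5. Both therefore could not change, though they are counted among the 56. The listing difference ranged from 47.5 to 57.5 with 1 library left out. The cause of these changes was not tested unless stated. Depth is unknown. Simulated endogenous shifts of 1 on the log2 scale were called in 2% of regions, but few of the simulated regions were shifted, unlike in the data.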
